A study of Mus musculus with 6 samples.

Results

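Neurotrophins, their receptors and the neurotrophin-induced gene Vgf were described in the prefrontal cortex of aged mice that had or had not undergone anesthesia and surgery. The 7 genes were chosen by name, whatever their values, and all 7 were found by Ensembl identifier among the 21006 genes of the table. They were the ligands Bdnf and Ntf3, the tyrosine kinase receptors Ntrk2 and Ntrk3, the receptors Ngfr and Sort1, and Vgf. The samples came from 6 wild type male C57BL/6 mice aged 18 months by the age label (the sample titles carry another number, followed by M, that is not explained), 1 sample per mouse and 3 per group. The treated mice, called PND for postoperative neurocognitive disorder, were anesthetized with 1.5% isoflurane and underwent exploratory laparotomy, a surgical opening and inspection of the abdomen, with lidocaine cream and povidone iodine on the wound afterwards. The CON group had no anesthesia or operation, so anesthesia, surgery and wound care cannot be told apart here. Mice of both groups took behavioral tests, and all were killed under deep isoflurane anesthesia with saline perfusion shortly after a Barnes maze session, a test of spatial memory. Levels were given as FPKM (fragments per kilobase of exon, scaled by depth), which lets levels be compared between genes per length.

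Neurotrophins are secreted growth factors made as longer precursors, which proteases cut to the mature form. Mature BDNF binds the receptor TrkB (Ntrk2) and NT-3 (Ntf3) binds mainly TrkC (Ntrk3). These kinases then signal through adaptors, the MAP kinase and PI3 kinase pathways and phospholipase C gamma to support survival, dendrite growth and synaptic plasticity. The precursors bind the p75 receptor (Ngfr) together with sortilin (Sort1), a combination known for growth cone collapse and cell death. In the cortex, Bdnf is transcribed mostly in excitatory neurons from several promoters that respond to calcium entry, and Vgf encodes a secretory granule protein that BDNF induces.

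All 7 genes were annotated as protein coding in GENCODE M21 (GRCm38). Bdnf (ENSMUSG00000048482) lay on the plus strand at chr2:109674700-109727007 and had 11 transcripts, all with complete coding sequences of 750 to 870 bases. Ntf3 (ENSMUSG00000049107) lay on the minus strand at chr6:126101412-126166910 and had 3 transcripts. Ntrk2 (ENSMUSG00000055254) lay on the plus strand at chr13:58806569-59133970. Ntrk3 (ENSMUSG00000059146) lay on the minus strand at chr7:78175959-78738012. The complete coding sequences of both receptors varied widely in length, from 1401 to 2466 bases for Ntrk2 and from 1839 to 2595 bases for Ntrk3. The shorter forms of these genes are known to encode receptors without the kinase domain, and a single value per gene does not separate them. Ngfr (ENSMUSG00000000120) lay on the minus strand at chr11:95568818-95587735 with 1 transcript, Sort1 (ENSMUSG00000068747) on the plus strand at chr3:108284082-108361511 with 3, and Vgf (ENSMUSG00000037428) on the plus strand at chr5:137026392-137033351 with 4.

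RefSeq promoters (GRCm38.p6, 250 bases before to 50 after a start site) were given for Bdnf, Ntf3, Ntrk2 and Ngfr. Bdnf had 7 of them, and the 1 printed here is a calcium-responsive one, chosen because activity genes were measured in the same samples. It lay at chr2:109692186-109692485 on the plus strand. Capitals mark TCACGTCA, the core of a known calcium-responsive element.
Bdnf promoter: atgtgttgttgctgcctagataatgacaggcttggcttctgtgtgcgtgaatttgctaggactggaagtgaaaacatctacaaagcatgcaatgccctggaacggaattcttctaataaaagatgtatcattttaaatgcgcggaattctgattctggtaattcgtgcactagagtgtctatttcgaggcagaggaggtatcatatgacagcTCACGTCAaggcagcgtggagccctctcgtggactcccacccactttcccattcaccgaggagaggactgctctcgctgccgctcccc
On both strands, TCACGTCA was held by 145 of 32817 RefSeq promoters of the same length (0.442%) and by no other Bdnf promoter in the table. The full cAMP response element TGACGTCA, held by 1.79% of promoters, was in none of the 7 Bdnf promoters nor in those of Ntf3, Ntrk2 and Ngfr. The shorter element TGACG, held by 20.8%, overlaps TCACGTCA on the opposite strand. A match of letters is a description and was not tested as a binding site.

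The related members share only short stretches of identical coding sequence, which is shown because the receptors and the ligands are counted as separate genes. Capitals mark the longest identical run, with 12 bases on each side. The run was 23 bases in the kinase receptors (coding bases 1828 to 1850 of Ntrk2 and 1831 to 1853 of Ntrk3) and 17 bases in the ligands (823 to 839 of Bdnf and 766 to 782 of Ntf3), each in the longest coding sequence of GENCODE M21.
Ntrk2: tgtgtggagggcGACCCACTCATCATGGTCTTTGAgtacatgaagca
Ntrk3: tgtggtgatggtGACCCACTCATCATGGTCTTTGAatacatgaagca
Bdnf: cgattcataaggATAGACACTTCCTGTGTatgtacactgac
Ntf3: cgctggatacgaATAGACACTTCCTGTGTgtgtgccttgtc
Of the 50-base words in the longest transcript of each member, 10.7% in Bdnf and 4.27% in Sort1 occurred also in 1 overlapping antisense gene each. In Ntrk3 0.802% and in Ngfr 0.854% also occurred in other genes, and none did in Ntf3, Ntrk2 and Vgf. In Bdnf, 896 exon bases overlapped the antisense gene Gm45346, and in Sort1, 338 overlapped the antisense gene Gm12523. Neither antisense gene was in the table. The use of strand in counting was not stated, so reads from these overlaps cannot be assigned.

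None of the 7 genes passed a test of PND against CON. The group means of both kinase receptors and of Bdnf lay within 0.10 of each other on the log2 scale, while the intervals of Ntf3, Ngfr and Vgf were wide. With limma on log2(FPKM + 0.1), 0 of 7 had an unadjusted p below 0.05, against 569 of 18185 genes tested (3.13%, of which 1.73% higher and 1.4% lower in PND), and each had a Benjamini-Hochberg adjusted p of 0.9999. The study's cut-off, an absolute log2 fold change above 1 with an unadjusted p below 0.05, was passed by 0 of 7 and by 241 of all genes (1.33%, with 0.841% higher and 0.484% lower). In 0 of 7 did the 3 samples of one group all lie above the 3 of the other, against 1393 genes (7.66%, with 3.78% higher and 3.88% lower in PND). The log2 fold change was above 0 for 4 members and below 0 for 3, with a median of 0.02, beside 52.4% of genes above 0 and a median of 0.01 over all genes tested. Across the whole table, 2 genes had an adjusted p below 0.05 (0.011%).

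**Figure D1:**
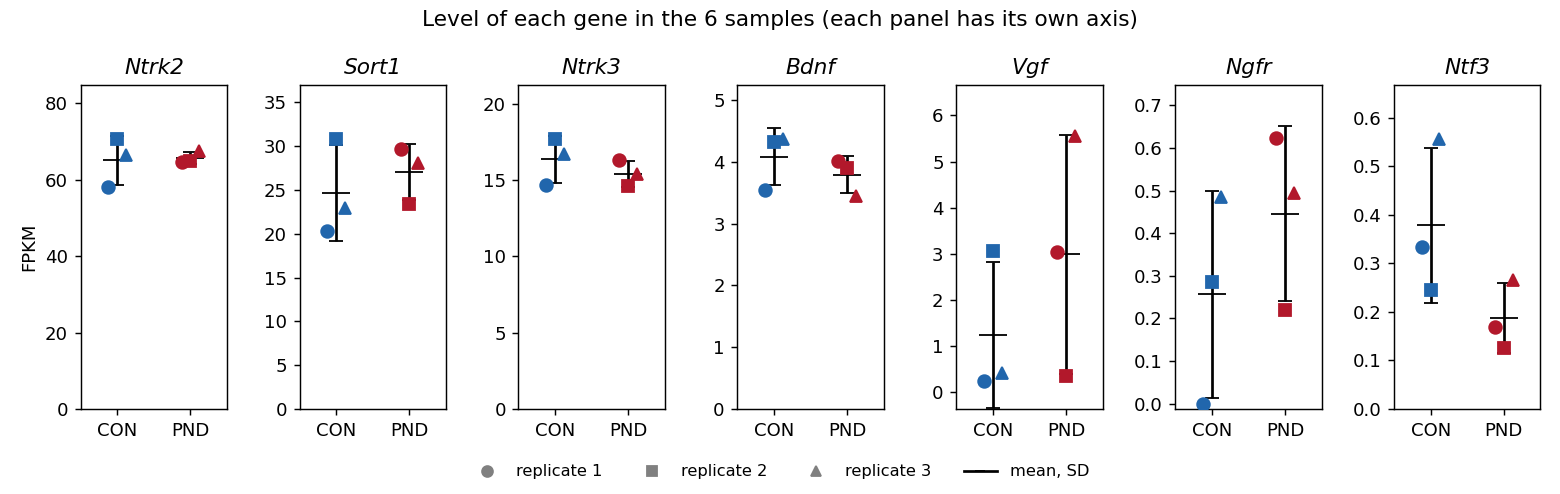
FPKM of the 7 genes in the 3 PND and 3 CON samples, 1 panel per gene with its own axis. Points are samples, and bars show the mean ± SD of each group. In every panel the groups overlap, and Vgf ranges from 0.251 to 5.55 FPKM.

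The ligand Bdnf was at 4.02, 3.90 and 3.45 FPKM in PND replicates 1 to 3 and at 3.55, 4.32 and 4.37 FPKM in CON replicates 1 to 3. CON replicate 1 lay inside the PND range and the other CON samples above it, so the groups overlapped. The PND mean was 3.79 ± 0.298 FPKM and the CON mean 4.08 ± 0.460 FPKM (SD, n = 3 each). On the log2 scale Bdnf differed by -0.10 ± 0.16 (SE), with a limma 95% interval from -0.48 to 0.27 (exact two-sided permutation p = 0.5, where 3 against 3 cannot go below 0.1). As a fold this interval runs from 0.719 to 1.21, so the comparison did not separate a moderately lower Bdnf from a slightly higher one. The level was above that of 60.9% of genes tested.

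Ntf3, the ligand of TrkC, was near the lower end of what the libraries could measure. It was at 0.169, 0.126 and 0.266 FPKM in PND and at 0.333, 0.245 and 0.556 FPKM in CON, which corresponds to an estimated 10 fragments in PND and 17 in CON over 3 samples each. PND replicate 3 lay above CON replicate 2, and the other PND samples lay below all CON samples. Its log2 fold change was -0.71 ± 0.40 (SE), with a limma 95% interval from -1.65 to 0.23 (exact permutation p = 0.2). With a pseudocount of 1 it was -0.21 and with one of 0.01 it was -0.96.

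Ntrk2, which encodes the BDNF receptor TrkB, was the highest of the members and lay above 98.4% of genes tested. Its level was 64.6, 64.9 and 67.5 FPKM in PND and 58.0, 70.7 and 66.5 FPKM in CON. The PND samples lay within the CON range. The means were 65.7 ± 1.59 and 65.1 ± 6.46 FPKM, and the log2 fold change was 0.02 ± 0.10 (SE; limma 95% interval -0.23 to 0.26, exact permutation p = 0.9). The interval as a fold was 0.854 to 1.2, the narrowest among the members. The sign was reversed without CON replicate 1 (-0.06) and without PND replicate 3 (-0.0029), so no direction can be given.

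Ntrk3, which encodes the NT-3 receptor TrkC, was at 16.3, 14.6 and 15.4 FPKM in PND and at 14.7, 17.7 and 16.7 FPKM in CON. CON replicate 1 lay inside the PND range and the other CON samples above it, the same arrangement as for Bdnf. Ntrk3 differed by -0.08 ± 0.12 on the log2 scale (SE; limma 95% interval -0.36 to 0.20, exact permutation p = 0.4). Ntrk2 and Ntrk3 had small within-group spreads (SD of 0.11 on the log2 scale each), which only 11.1% and 12.3% of the 12387 genes with at least 1 FPKM fell below.

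Within each library the balance of the kinase receptors can be read without scaling between libraries. The log2 ratio of Ntrk2 over Ntrk3 was 1.98, 2.14 and 2.13 in PND and 1.97, 2.00 and 1.99 in CON. CON samples were nearly equal, and PND replicate 1 lay among them while the other PND samples were higher. The difference was 0.10 (exact two-sided permutation test, p = 0.3, the smallest possible with 3 against 3 being 0.1). With 1 sample left out that difference ran from 0.07 (without PND replicate 2 or 3) to 0.15 (without PND replicate 1). The levels per length of Ntrk2 were thus 3.93 to 4.41 times those of Ntrk3 over the 6 libraries. The ratios of Bdnf over Ntrk2 (difference -0.12, exact permutation p = 0.3, and -0.03 without PND replicate 3) and of Ntf3 over Ntrk3 (-0.63, exact permutation p = 0.2, and -0.40 without CON replicate 3), ligand over receptor, did not pass either.

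Ngfr, which encodes the p75 receptor shared by all neurotrophins, was at 0.623, 0.220 and 0.495 FPKM in PND and at 0.0, 0.285 and 0.484 FPKM in CON. PND replicate 2 lay below 2 of the 3 CON samples, and CON replicate 1 had no estimated fragment. Its log2 fold change was 0.87 ± 0.70 (SE; limma 95% interval -0.76 to 2.50, exact permutation p = 0.4), on an estimated 41 fragments in PND and 20 in CON. Without CON replicate 1 it was 0.12, over the 6 fits that each left out 1 sample it reached 1.40, and pseudocounts of 1 and 0.01 FPKM gave 0.21 and 1.89, so its size is not settled. In the adult forebrain p75 is known mostly from basal forebrain cholinergic neurons, whose axons reach the cortex. Markers of those neurons also had higher means in PND. Their summed level was 6.34 to 7.5 FPKM in PND and 1.49 to 7.23 FPKM in CON. This sum rests mostly on Slc5a7, at 4.15, 5.45 and 4.65 FPKM in PND and at 3.33, 1.09 and 5.56 FPKM in CON. CON replicate 3 thus had the highest Slc5a7 and CON replicate 2 the lowest. The log2 fold change was above 0 for 4 of 4 tested markers, none with p below 0.05. Their median was 0.90, beside 0.01 over all genes tested. Lhx8, a transcription factor of these cells, was at 0.801, 0.512 and 0.782 FPKM in PND and 0.507, 0.0621 and 0.458 FPKM in CON. Its groups did not overlap, as in 7.66% of all genes, but were only just apart at 0.512 and 0.507 FPKM. The groups of the other tested markers, Chat, Slc5a7 and Gbx1, overlapped. Slc18a3 of that list was at 0 in all CON samples and in PND replicate 1. The part of these cells in the Ngfr values was not tested, and in bulk tissue fewer cells of a type and less RNA per cell cannot be told apart.

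Sort1, which encodes sortilin, a sorting receptor and the partner of p75, was the second most abundant member. It was at 29.6, 23.4 and 28.1 FPKM in PND and at 20.3, 30.8 and 22.9 FPKM in CON. The highest and the lowest sample both belonged to CON. Sort1 differed by 0.15 ± 0.18 on the log2 scale (SE; limma 95% interval -0.27 to 0.56, exact permutation p = 0.6). With 1 sample left out it ran from 0.02 (without CON replicate 1) to 0.32 (without CON replicate 2). The ratios of Ngfr over Ntrk2 (difference 0.85, exact permutation p = 0.4, and 0.19 without CON replicate 1) and Sort1 over Ntrk2 (0.13, exact permutation p = 0.5, and 0.05 without PND replicate 1) were not distinguishable between groups, and over the 6 ratios computed the Benjamini-Hochberg adjusted values were 0.45 to 0.50.

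**Figure D2:**
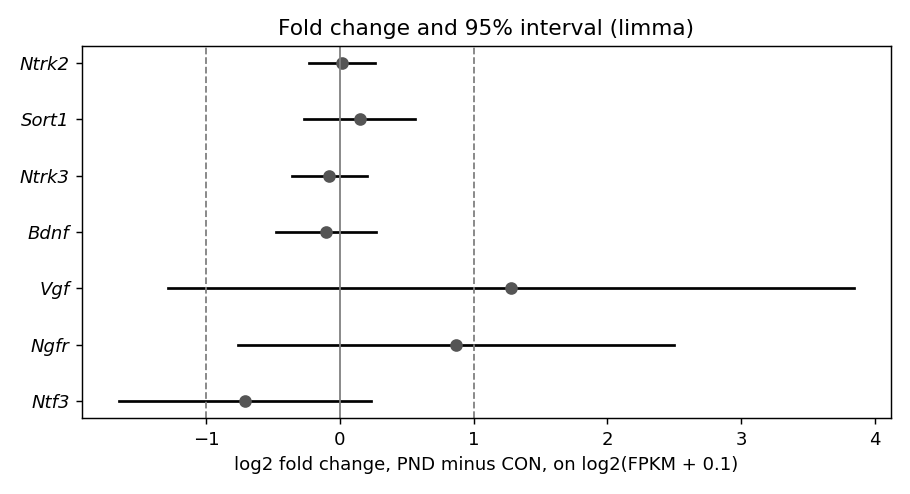
Log2 fold change of PND against CON for the 7 genes on log2(FPKM + 0.1). Points are limma estimates, horizontal lines 95% intervals, and dashed lines an absolute log2 fold change of 1. All 7 intervals cross 0, from the narrow interval of Ntrk2 (-0.23 to 0.26) to that of Vgf (-1.28 to 3.84).

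Vgf had the largest spread of the members. Its fold change was also the largest as tested, but Ngfr exceeded it with a pseudocount of 0.01 (1.89 against 1.40) and without CON replicate 3 (1.40 against 0.94). Without PND replicate 3, Vgf was at 0.54, below Ngfr at 0.77 and smaller in size than Ntf3 at -0.90, and without CON replicate 1 it was at 0.65 against -0.76 for Ntf3. It was at 3.05, 0.367 and 5.55 FPKM in PND and at 0.251, 3.06 and 0.427 FPKM in CON. PND replicates 1 and 3 and CON replicate 2 were high, the other samples low, and the high samples of the groups met at 3.05 and 3.06 FPKM. Its log2 fold change was 1.28 ± 1.09 (SE; limma 95% interval -1.28 to 3.84, exact permutation p = 0.5). Without PND replicate 2 it was 2.33 with an unadjusted p below 0.05 in limma, and over the 6 fits that each left out 1 sample it ranged from 0.54 to 2.33. The within-group SD, 1.79 on the log2 scale, was larger than that of 99.6% of the 12387 genes with at least 1 FPKM. The high samples rest on an estimated 74.0 to 154.8 fragments and the low ones on 5.6 to 9.2. The log2 ratio of Vgf over Bdnf was -0.39, -3.10 and 0.67 in PND and -3.38, -0.49 and -3.08 in CON (difference 1.38, exact permutation p = 0.3). That difference ran from 0.57 without PND replicate 3 to 2.46 without PND replicate 2.

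The spread of Vgf moved with that of GC-rich genes. Vgf transcripts were 64.1% G and C, above 99.7% of the genes averaging at least 1 FPKM, whose median was 47.7%. Among the members Ngfr followed at 58.6% and Sort1 at 51.0%, while Bdnf was at 40.9% and Ntrk3 at 43.6%. The windows of 120 coding bases with the most G and C are shown for Vgf (coding bases 1450 to 1569, 75% G and C) and, as members that varied little, for Ntrk2 (4 to 123, 65.8%) and Bdnf (499 to 618, 62.5%). Capitals mark G and C.
Vgf: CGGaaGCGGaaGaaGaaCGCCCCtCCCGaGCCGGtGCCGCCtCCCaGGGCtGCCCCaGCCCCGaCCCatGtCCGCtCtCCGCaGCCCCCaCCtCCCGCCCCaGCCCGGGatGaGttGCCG
Ntrk2: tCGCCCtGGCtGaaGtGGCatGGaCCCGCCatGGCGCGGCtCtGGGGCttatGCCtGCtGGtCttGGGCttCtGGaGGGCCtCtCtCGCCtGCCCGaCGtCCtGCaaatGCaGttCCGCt
Bdnf: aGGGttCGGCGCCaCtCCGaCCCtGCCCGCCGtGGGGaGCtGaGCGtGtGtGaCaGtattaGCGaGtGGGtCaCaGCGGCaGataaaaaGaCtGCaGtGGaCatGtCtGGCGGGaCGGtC
The top GC decile of the genes averaging at least 1 FPKM held 1233 genes (from 56.6% upward). Their median deviation was 0.11, -0.30 and 0.37 in PND and -0.56, 0.49 and -0.03 in CON on the log2 scale. This median was above 0 in the same 3 libraries in which Vgf was high, and in which Sort1 was highest as well. Ngfr, richer in G and C than Sort1, followed it only in part, with deviations of 0.92, -0.25 and 0.64 in PND and -1.93, 0.01 and 0.61 in CON. Like the decile it was lowest in CON replicate 1, but it was at 0.01 in CON replicate 2, where the decile was highest.

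The deviation of Vgf from its own mean spanned 4.01 on the log2 scale over the 6 libraries, a 16.1-fold range. After a per-library GC curve was removed it spanned 2.89, a 7.4-fold range, with the same 3 libraries high. The within-group SD fell from 1.79 to 1.25, and the log2 fold change was then 1.17, still without an unadjusted p below 0.05. Within the top GC decile itself, Vgf varied more than 98.6% of genes (median SD 0.51). The same correction took the range of Ngfr from 2.85 to 2.21 and that of Sort1 from 0.60 to 0.36, while those of Bdnf (0.33 to 0.55) and Ntrk3 (0.27 to 0.46) widened. Those of Ntf3 (1.53 to 1.49) and Ntrk2 (0.28 to 0.21) became narrower. The part of library composition in the remaining spread of Vgf was not tested.

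**Figure D3:**
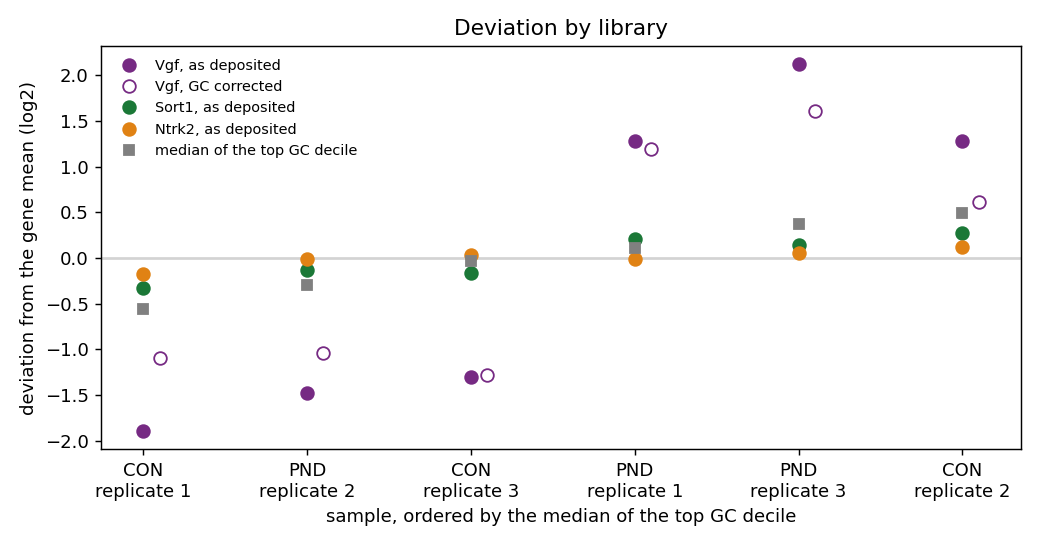
Deviation from the gene's mean over the 6 samples (log2) for Vgf, Sort1 and Ntrk2, with the samples ordered by the median of the top GC decile (grey squares). Filled points are as deposited and open points Vgf after the GC curve was removed. Vgf runs from -1.89 in CON replicate 1 to 2.12 in PND replicate 3, while Ntrk2 stays near 0.

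For the 5 members with at least 1 FPKM, which leaves out Ntf3 and Ngfr, the genes with the most similar values were ranked by the root mean square difference of mean-centred log2 values over the 6 samples, among 10504 protein-coding genes with at least 1 FPKM. For Bdnf they were Ppm1k (0.032) and Tmem260 (0.034), for Ntrk2 Asrgl1 (0.019) and Pitpna (0.022), for Ntrk3 Clk2 (0.021) and Ctcf (0.028), and for Sort1 Stk32c (0.024) and Hjurp (0.027). For Vgf the nearest were Enho at 0.56 and Serf2 at 0.62. The measure grows with a member's own spread, so these differences cannot be set against those of the members that varied little. Enho, which encodes a secreted peptide, was 65.6% G and C and was at 1.96, 0.299 and 2.27 FPKM in PND and at 0.421, 2.42 and 0.219 FPKM in CON. Serf2, at only 50.1% G and C, was at 1.55, 0.238 and 2.27 FPKM in PND and at 0.376, 2.91 and 0.551 FPKM in CON. Both were high and low in the same samples as Vgf.

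Other receptors of the sortilin family were then read. Sorcs1, a sorting receptor of neurons, was at 12.1, 12.1 and 10.8 FPKM in PND and at 9.44, 9.65 and 8.53 FPKM in CON. Every PND sample lay above every CON sample, as for 3.78% of all genes. It was higher by 0.34 ± 0.12 on the log2 scale (SE; unadjusted p below 0.05 in limma, Benjamini-Hochberg adjusted p = 0.9999, exact permutation p = 0.1, the smallest possible). Of 16 alternative fits, 6 gave it an unadjusted p above 0.05, among them those without PND replicate 1, PND replicate 2 or CON replicate 3. Sorcs2 (0.14 ± 0.28 SE) and Sorcs3 (-0.04 ± 0.13 SE) did not pass and reversed sign when single samples were left out. Sorl1, which sorts TrkB and the amyloid precursor, had a log2 fold change of 0.11 ± 0.15 (SE), which ran from 0.02 without CON replicate 1 to 0.27 without CON replicate 2, the latter with an unadjusted limma p below 0.05. Of the 5 genes tested in the list of other ligands and receptors, 1 was higher and 0 were lower with p below 0.05 (1.73% and 1.4% of all genes), and the median log2 fold change was 0.11.

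The wider pathway was read through 9 lists with 155 genes, of which 144 were tested. Of these, 2 were higher and 4 lower with an unadjusted limma p below 0.05 (4.17% against 3.13% of all genes), and the median log2 fold change was 0.01, the same as over all genes. With a single sample left out the counts ranged from 0 to 7 higher (7 without CON replicate 2) and from 2 to 10 lower (10 without CON replicate 1). In 12 of the 144 the groups did not overlap, against 7.66% of all genes. Shares this near the background are not a result about the pathway.

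**Figure D4:**
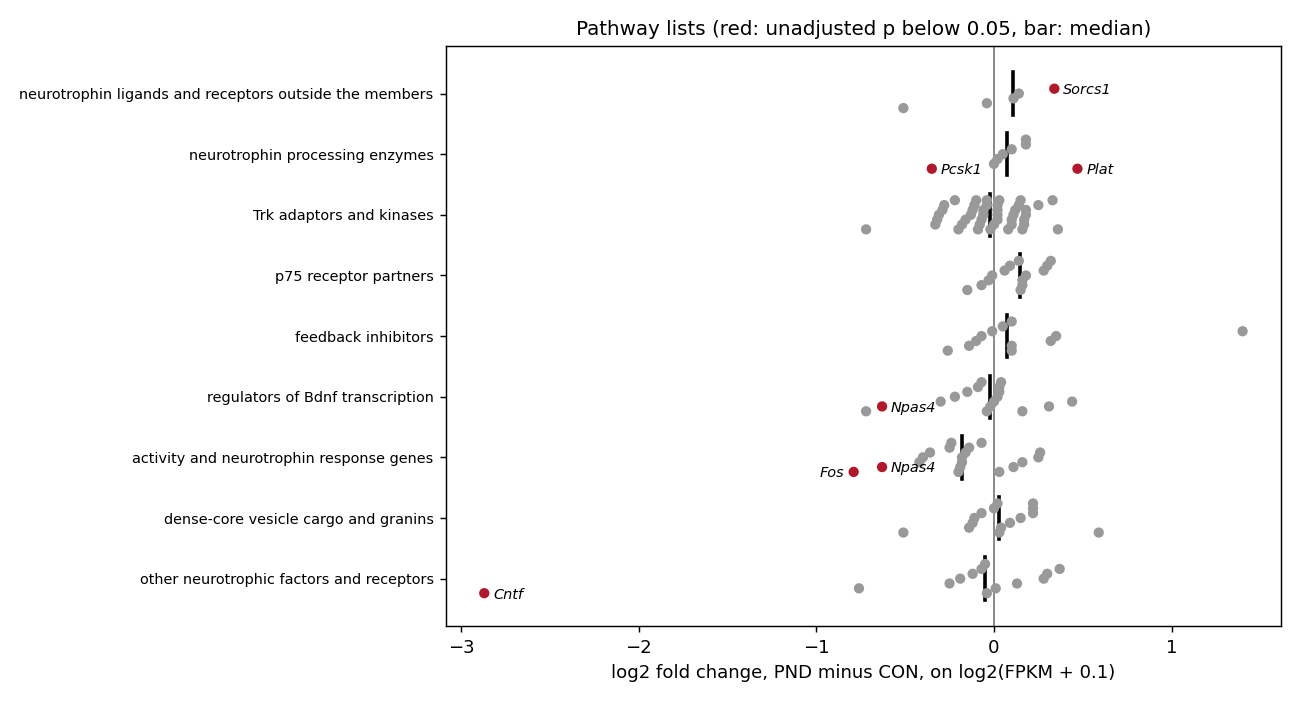
Log2 fold change of PND against CON for the tested genes of each list. Each point is a gene, red where the unadjusted limma p is below 0.05, and black bars are list medians. The medians run from -0.18 for activity response genes to 0.14 for p75 receptor partners.

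Among the enzymes that cut neurotrophin precursors, 1 of 8 tested was higher and 1 lower with an unadjusted limma p below 0.05, against 3.13% of all genes. Plat, tissue plasminogen activator, which generates the plasmin that cuts proBDNF, was at 7.82, 6.35 and 9.93 FPKM in PND and at 5.06, 5.96 and 6.10 FPKM in CON (log2 fold change 0.47 ± 0.19 SE, limma adjusted p = 0.9999, exact permutation p = 0.1). Pcsk1, a prohormone convertase of the regulated secretory pathway, was at 13.7, 11.6 and 12.2 FPKM in PND and at 13.9, 18.1 and 15.9 FPKM in CON (-0.35 ± 0.14 SE, limma adjusted p = 0.9999, exact permutation p = 0.1). In both genes the groups did not overlap, which held for 7.66% of all genes. Of 16 alternative fits, 7 gave Plat an unadjusted p above 0.05, among them those without PND replicates 1 or 3 and without any single CON sample. For Pcsk1 it was 8, among them those without PND replicates 2 or 3 and without CON replicates 2 or 3.

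Downstream of the receptors, 0 of 43 tested adaptors and kinases and 0 of 14 partners of p75 passed p below 0.05, with median log2 fold changes of -0.02 and 0.14. Those with the smallest p in each direction were Rps6ka3, a ribosomal S6 kinase (0.36 ± 0.20 SE), and Rap1b, a small GTPase (-0.22 ± 0.10 SE, groups not overlapping), among adaptors and kinases. Rps6ka3 had an unadjusted limma p below 0.05 without PND replicate 3 (0.54) and with the GC correction (0.40) but not in the other 14 of 16 alternative fits, with 0.23 without PND replicate 1. Among p75 partners the genes were Bex1 (0.32 ± 0.20 SE, from 0.15 to 0.47 without PND replicate 3 or 1) and Traf6 (-0.15 ± 0.18 SE, from -0.27 to -0.01 without CON replicate 3 or 1). The feedback inhibitors gave 0 of 12, and of those with a higher PND mean Spry1 came nearest (1.40 ± 0.74 SE, exact permutation p = 0.1). Spry1 was at 1.02, 0.798 and 0.736 FPKM in PND and at 0.0, 0.664 and 0.501 FPKM in CON, so every PND sample lay above every CON sample and CON replicate 1 was listed at 0. Its log2 fold change was 0.48 without CON replicate 1, 1.94 without CON replicate 2 (where alone the unadjusted limma p lay below 0.05), 0.45 with a pseudocount of 1 and 2.50 with one of 0.01. Dusp6, a phosphatase of ERK, had a log2 fold change of -0.26 ± 0.16 (SE), which was -0.13 without CON replicate 2.

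Neuronal activity drives Bdnf transcription, and 2 of the 19 activity and neurotrophin response genes tested, Fos and Npas4, were lower in PND with an unadjusted limma p below 0.05 (10.5% of the list, against 3.13% of all genes). Fos, an immediate early transcription factor, was at 2.18, 2.17 and 2.05 FPKM in PND and at 3.73, 3.56 and 4.03 FPKM in CON. The groups were well apart, with means of 2.13 ± 0.0702 and 3.77 ± 0.240 FPKM (SD, n = 3 each). Fos was lower by a log2 fold change of -0.79 ± 0.16 (SE; exact permutation p = 0.1, the smallest possible), with an unadjusted limma p below 0.05 but a Benjamini-Hochberg adjusted p of 0.787 over all genes. Npas4, a neuron-specific factor that binds Bdnf promoters, was at 4.07, 3.74 and 3.64 FPKM in PND and at 4.89, 7.75 and 5.56 FPKM in CON (-0.63 ± 0.20 SE, limma adjusted p = 0.9999, exact permutation p = 0.1). Its groups did not overlap either. Both genes kept an unadjusted p below 0.05 in 16 of 16 alternative fits, with log2 fold changes from -0.83 to -0.61 for Fos and from -0.77 to -0.44 for Npas4. Bdnf, a target of such factors, had a log2 fold change of -0.10 in the same samples.

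**Figure D5:**
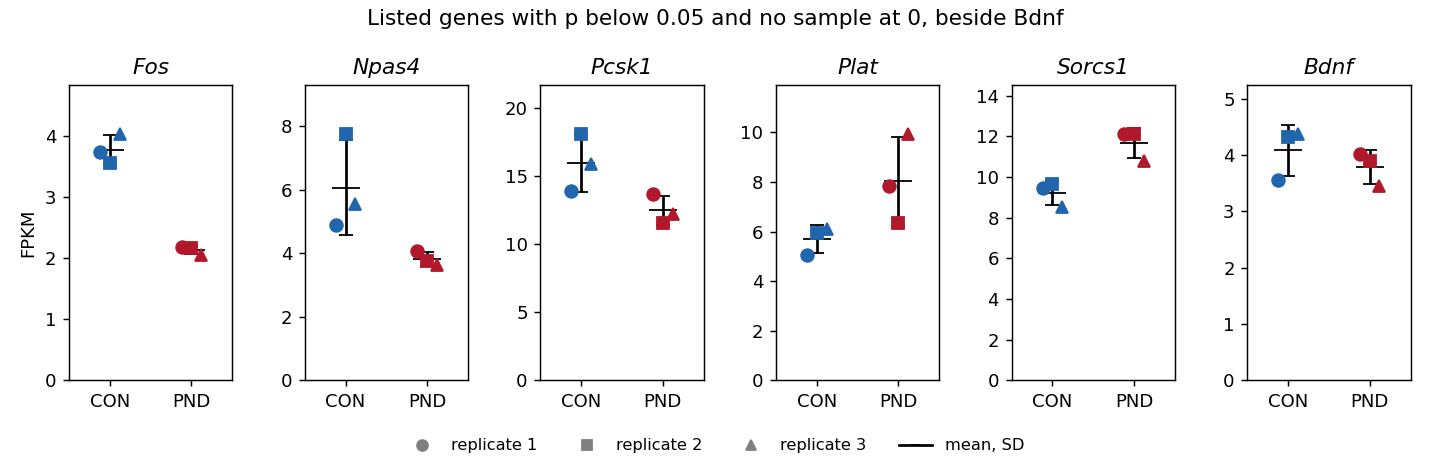
FPKM by sample of the listed genes with an unadjusted limma p below 0.05 and no sample at 0, beside Bdnf. Points are samples and bars the mean ± SD of each group (n = 3). Fos and Npas4 are lower in all 3 PND samples (Fos 2.05 to 2.18 against 3.56 to 4.03 FPKM), while the Bdnf groups overlap.

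Of the 19 activity and neurotrophin response genes, 5 had a log2 fold change above 0 and 14 below, with a median of -0.18, beside 52.4% above 0 and a median of 0.01 over all genes tested. The highest in PND by p was Nptx2, a synaptic pentraxin (0.16 ± 0.22 SE). Among 17 tested regulators of Bdnf transcription, Npas4 was lower, none was higher, and the median was -0.02. Mef2a, an activity-dependent factor, had a log2 fold change of 0.44 ± 0.29 (SE), which was 0.11 without CON replicate 1 and 0.73 without CON replicate 3, where alone its unadjusted limma p lay below 0.05.

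Vgf is stored in dense-core vesicles with the granins and neuropeptides, of which 0 of 15 passed and the median log2 fold change was 0.03. Chga, which encodes the granule protein chromogranin A, was at 20.2, 19.2 and 30.3 FPKM in PND and at 9.71, 20.1 and 17.6 FPKM in CON (0.59 ± 0.30 SE, exact permutation p = 0.2). Of 16 alternative fits, 13 gave it no unadjusted p below 0.05, and the 3 that did were those with the GC correction (0.50, with and without the replicate block) and without CON replicate 2 (0.79). It was 0.27 without CON replicate 1 and 0.38 without PND replicate 3. Npy, a neuropeptide of inhibitory neurons, had a log2 fold change of -0.51 ± 0.43 (SE), which ran from -0.10 without PND replicate 1 to -0.92 without PND replicate 3, the latter with an unadjusted limma p below 0.05. Among 13 tested neurotrophic factors and receptors of other families, Cntf, ciliary neurotrophic factor, was the only listed gene past the cut-off. It was listed at 0 in all PND samples and in CON replicate 2, and at 4.35 and 0.777 FPKM in CON replicates 1 and 3 (log2 fold change -2.87 ± 1.22 SE, exact permutation p = 0.4), so its groups overlapped. The log2 fold change was -1.57 without CON replicate 1, -4.30 without CON replicate 2, and -1.08 and -5.02 with pseudocounts of 1 and 0.01. Of the 15 alternative fits that kept Cntf, 9 gave it an unadjusted p above 0.05, among them those without any single PND sample and without CON replicates 1 or 3. In that gene 847 of 1073 exon bases overlap Zfp91 on the same strand, so its reads are uncertain. Ret, the kinase of the GDNF receptors, had a log2 fold change of 0.30 ± 0.28 (SE).

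Markers of cortical tissue were present in all 6 samples. Summed markers of cortical excitatory neurons were at 153 to 189 FPKM in PND and 153 to 237 FPKM in CON, and those of astrocytes, which also make TrkB, at 326 to 445 and 277 to 568 FPKM. These sums hide unequal members, since the glutamate transporter Slc1a2, at 68.5 to 368 FPKM, takes much of the astrocyte sum. Of 7 astrocyte markers, Gfap was higher (22.9, 17.7 and 24.7 FPKM in PND, 13.0, 14.9 and 13.0 FPKM in CON) and Aqp4 lower (25.6, 21.5 and 24.8 FPKM in PND, 34.5, 26.8 and 31.3 FPKM in CON). Of 6 microglia markers P2ry12 was lower (log2 fold change -0.76 ± 0.21 SE), while 4 had a log2 fold change above 0 and the list median was 0.10. In these 3 genes the groups did not overlap and the unadjusted limma p lay below 0.05, with an adjusted p of 0.9999 each. Over all genes tested, 7.66% had groups that did not overlap and 3.13% had an unadjusted p below 0.05. Striatal markers were also present, at 117 to 141 FPKM in PND and 80.4 to 188 FPKM in CON. Choroid plexus markers were at 2.25 to 2.82 and 1.15 to 2.15 FPKM, and their sum rests mostly on Clic6, at 1.88, 1.51 and 2.14 FPKM in PND and at 0.962, 0.701 and 1.49 FPKM in CON. The defining marker Ttr was at 0 to 0.207 FPKM, Folr1 and Aqp1 were at 0 in all CON samples and near 0 in PND, and Kcne2 was at 0 in all PND samples. The part of these cells in the values above was not tested. Depth, estimated from the steps of low values, was 7210901 to 9387382 fragments per sample, and no pair of samples held identical values.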

How the data were processed

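Ribosomal RNA was removed from total RNA of prefrontal cortex, and libraries were sequenced on an Illumina instrument. The authors filtered reads with Seqtk, aligned them with HISAT2, counted fragments with StringTie, scaled samples by TMM and deposited FPKM per Ensembl gene for each mouse. The submitters' processing notes name the mouse builds mm8 and mm9 and Bowtie 0.12.2 without a role, so the build behind these values was not settled, and the strand setting was not given in the sources used here. The authors tested with edgeR and limma.

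The groups were tested from these FPKM with limma 3.58.1 (R 4.3.3; lmFit, eBayes with an intensity trend, two-sided, no covariate) on log2(FPKM + 0.1) over the 18185 genes averaging 0.1 FPKM or more. Fold changes on this scale understate changes of low genes. P-values were adjusted by the Benjamini-Hochberg method across these genes. A gene is said to pass where its unadjusted p lay below 0.05. Ratios within a library were compared by exact permutation tests, and such tests of single genes were added after seeing the data. Each sample was a separate mouse, so p-values measure the spread between mice. Groups came from the treatment labels.

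Symbols were matched for 20866 of 21006 identifiers. Coordinates, lengths and GC content came from GENCODE M21 (GRCm38), not from the deposited values. Fragment numbers were estimated from steps in FPKM times length. Between 41.6% and 44.8% of low values lay within 0.05 of a whole fragment, so they are estimates, and the floor of 3 fragments covers counting error only. The fit was tested on simulated data. The genes named were the 7 members, listed ligands and receptors (some are not reported here), list genes past the cut-off, and the gene with the smallest p in each direction of each list. Marker genes named were chosen after their values were seen. Ntf5 was not analysed here. Promoters of Ntrk3, Sort1 and Vgf were not used here. The members and lists were chosen with earlier results of these data known.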

Additional observations from a re-analysis of the deposited data

How the results depend on the processing

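The 16 alternatives were pseudocounts of 1 and 0.01, no filter, a filter of at least 1 FPKM, no intensity trend, median centring, quantile normalization, a GC correction, a replicate block with and without that correction, and each sample left out. Members with an unadjusted p below 0.05 numbered 0 as reported and 0 to 1 with a sample left out. The 1 was Vgf without PND replicate 2, at 2.33 (0.54 to 2.33 over the 6 fits). Ntrk2 ranged from -0.06 to 0.08 and was below 0 without PND replicate 3 (-0.0029) and without CON replicate 1. The genes past the cut-off, 241 as reported, were 25 with a pseudocount of 1, 59 with the filter of at least 1 FPKM and 235 to 388 with a sample left out, the most without CON replicate 2. Listed genes higher in PND, 2 as reported, were 0 without the trend, 1 with median centring, 4 with the GC correction and 0 to 7 with a sample left out (7 without CON replicate 2, 0 without PND replicate 1, 1 without CON replicate 1 or 3). Listed genes lower in PND, 4 as reported, were 2 without the trend and 2 to 10 with a sample left out (10 without CON replicate 1, 2 without CON replicate 3). The causes were not tested. Sorcs3 ranged from -0.09 to 0.03 (0.03 without PND replicate 2, 0.02 without CON replicate 2), Sorcs2 from -0.11 (without CON replicate 1) to 0.31, and Nptx2 from -0.01 (without PND replicate 3) to 0.36. With a sample left out, Bdnf ranged from -0.20 to -0.04, Ntrk3 from -0.15 to -0.02 and Ntf3 from -0.92 to -0.46. The filter of at least 1 FPKM removed Ntf3 and Ngfr, which then had no value.

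Same-numbered samples did not deviate together (correlations of -0.049, -0.451 and 0.027), and 1 of 6 samples correlated best with its own number. The highest correlations were 0.427 (PND replicate 2 with CON replicate 1) and 0.416 (PND replicate 3 with CON replicate 2), between libraries alike in their GC-rich genes. Such differences between libraries can hide a pairing, so this check cannot show whether equal numbers mark samples handled together. With the replicate block, 226 genes passed the cut-off, 0 members had p below 0.05, and 0 listed genes were higher and 3 lower. Few fragments lie behind Ntf3 (an estimated 2 to 8 per sample), Ngfr (0 to 19) and the 3 low samples of Vgf (5.6 to 9.2).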
